A study of Mus musculus with 12 samples.

Results

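A set of 39 type I interferon-stimulated genes and receptor chains were followed in a pair of mouse Eμ-Myc lymphoma lines, 6 days after a course of interferon-β (IFNβ) had ended. They were chosen by name, as well-known targets of the pathway together with its receptor, with earlier results of these data known. Of the 39 genes listed, 37 had a probe set of their own among the 30098 genes measured, with 1 probe set for each. Ifi44 had no probe set under its symbol and Ifi27 only one shared with Ifi27l1, so neither is reported.

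Type I interferons bind a receptor made of the IFNAR1 and IFNAR2 chains, whose kinases TYK2 and JAK1 phosphorylate STAT proteins. STAT2 and IRF9 are subunits of the complex ISGF3, which binds the interferon-stimulated response element (ISRE) in the promoters of target genes. The targets include antiviral proteins (the RNA-binding IFIT family, the OAS enzymes that switch on RNase L and the Mx GTPases), sensors of foreign nucleic acid, the ubiquitin-like protein ISG15, the factor IRF7 that amplifies interferon production, and USP18, which shuts receptor signalling down. The response is usually transient once interferon is removed, and lymphoid cells also hold a resting level of many of these transcripts without added interferon.

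The groups were 3s cells after IFNβ, 3s cells after vehicle, 30s cells after IFNβ and 30s cells after vehicle, with 3 cultures each and 1 array per culture. IFNβ was given at 50 U/ml for 72 h, the vehicle was PBS with 0.1% BSA, and all cultures then grew for 6 days in fresh medium before RNA was taken. Both are established lymphoma lines from spleen on a C57BL6/CBA background. They come from mice with Mx1Cre, Eμ-Myc and p53+/-, with floxed Runx1 (Rx1fl/fl) in 3s and wild type Runx1 (Rx1WT/WT) in 30s. For p53 this is the genotype of the mice and not of the cultured cells. The paper reports that established lines lacked functional protein from this gene, and calls the floxed line null for it. Mx1Cre is a Cre transgene driven by the promoter of Mx1, itself an interferon-stimulated gene, so that IFNβ excises floxed Runx1 in 3s cells only. Any IFNβ effect in 3s cells therefore joins interferon exposure and Cre induction with excision. The 30s cells had the exposure and Cre induction without excision. Each line is 1 line from 1 tumour, so differences between 3s and 30s cells compare these lines and cannot be told apart from the difference in genotype. The genotype entry of the labels follows the treatment rather than the line, so the groups were taken from the sample titles, cell names and treatments.

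Values are log2 values after RMA, and a difference of 1 is a doubling. Pairs of arrays correlated at 0.990 to 0.999 over all genes, and no array was a copy of another. The median SD between replicates was 0.069 to 0.071 over all genes in each group, and 0.056 to 0.071 over the 37 interferon-stimulated genes. Runx1 ranged over 7.7 to 8.0 in IFNβ-treated 3s cultures, 7.8 to 8.0 with vehicle, 8.2 to 8.4 in IFNβ-treated 30s cultures and 8.2 to 8.4 with vehicle, but no source at hand says whether its probes cover the floxed stretch, so the labels could not be checked by it. All 7 measured B lineage markers were well above background (means of 10.2 to 14.7, among them Cd79a, Pax5 and Ebf1), and all 18 measured markers of T and NK cells, macrophages and stromal cells were at or below it, Cd3e, Adgre1 and Col1a1 included. Of the markers of plasmacytoid dendritic cells, which make much of the type I interferon in the body, 3 of 5 were just above background, the highest at a mean of 6.22.

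Promoters of 29 of the 37 genes were in the RefSeq promoter table used here (GRCm38.p6, 250 bases before to 50 after the annotated start), and they were searched for the core of the ISRE. The core was taken as GAAA, any 2 bases and GAAA again, and searched on both strands (TTTC, any 2 bases and TTTC on the other). It was present in 12 of the 29, against 3.99% of all 27025 genes with a promoter in the table. The 12 were Isg15, Ifit1, Ifit3, Oas1a, Oas1g, Oas3, Rsad2, Ddx60, Bst2, Trim30a, Eif2ak2 and Stat2. Below are the windows of 4 genes that the array read near background in every group, then of 2 read well above it, with bases of the core in capitals. Each runs 5′ to 3′ in the direction of its gene. The Isg15 window (chr4:156200849-156200938, minus strand) holds 3 overlapping matches, and the Ifit1 window (chr19:34640749-34640838, plus strand) holds 2 separate ones on the other strand. The Oas1a (chr5:120907526-120907615, minus strand) and Oas1g (chr5:120887614-120887703, minus strand) windows are near copies, equal at 87 of 88 bases once moved by 2, which shows how close these paralogues are. The other windows are those of Bst2 (chr8:71537548-71537637, minus strand) and Trim30a (chr7:104465194-104465283, minus strand).
Isg15: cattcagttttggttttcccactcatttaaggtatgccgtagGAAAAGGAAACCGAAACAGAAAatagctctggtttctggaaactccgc
Ifit1: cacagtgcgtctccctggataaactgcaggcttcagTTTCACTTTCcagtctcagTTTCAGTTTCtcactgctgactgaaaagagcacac
Oas1a: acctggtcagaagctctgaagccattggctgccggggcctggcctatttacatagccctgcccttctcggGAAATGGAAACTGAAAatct
Oas1g: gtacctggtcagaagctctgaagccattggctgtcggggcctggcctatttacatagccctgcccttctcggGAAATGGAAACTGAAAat
Bst2: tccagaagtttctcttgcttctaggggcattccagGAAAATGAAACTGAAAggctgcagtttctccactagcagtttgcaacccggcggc
Trim30a: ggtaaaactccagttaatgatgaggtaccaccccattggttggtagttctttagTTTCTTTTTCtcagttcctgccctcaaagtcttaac

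Among the 16 promoters of genes above background 4 held the ISRE core, and among the 13 of genes at background 8 did. A match is a description of the letters and not a site shown to bind. Of the 3 genes that passed a test of IFNβ below, none had an ISRE core in this window. Exact matches alone were counted, so a stretch close to the core, such as tttcagttttgttttc just before the Xaf1 start, was not. The 250 bases upstream of Ifnar2 (chr16:91372533-91372782, plus strand) and of Xaf1 (chr11:72301379-72301628, plus strand), both without a match, are shown because these genes had the highest IFNβ differences in 30s cells.
Ifnar2: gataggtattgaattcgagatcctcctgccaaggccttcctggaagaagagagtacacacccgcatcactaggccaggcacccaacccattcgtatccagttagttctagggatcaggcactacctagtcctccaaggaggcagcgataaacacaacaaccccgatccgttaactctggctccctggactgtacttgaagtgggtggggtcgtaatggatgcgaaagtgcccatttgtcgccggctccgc
Xaf1: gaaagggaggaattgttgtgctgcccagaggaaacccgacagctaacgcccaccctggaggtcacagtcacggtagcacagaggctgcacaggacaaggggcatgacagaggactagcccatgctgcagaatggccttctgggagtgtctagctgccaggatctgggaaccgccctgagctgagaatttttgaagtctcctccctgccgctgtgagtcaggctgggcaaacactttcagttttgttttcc

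About as many members were read near background as above it, the Mx and OAS families among the first, and Ifit2, Bst2 and Eif2ak2 among the second. Of the 37 genes, 19 had a mean over the 12 arrays at or below the highest of the 23 background control probe sets (5.76), and 18 were above it, as were 45.6% of all genes. Both Mx genes, all 6 members of the OAS family, Isg15, Usp18, Ifit1, Ifit3, Rsad2, Irf7, Ifi44l, Rtp4, Zbp1, Cmpk2 and Ddx60 were at or below it, in the mean of each of the 4 groups as well. Above it were both receptor chains, the ISGF3 subunits Stat2 and Irf9, the double-stranded RNA kinase Eif2ak2, the RNA editor Adar, the dNTP hydrolase Samhd1, the exonuclease Isg20 and the ubiquitin ligase partners Parp9 and Dtx3l. So were Parp14, Herc6, Bst2, Trim30a, Sp100, Xaf1, Ifi35 and Ifit2. The 30s means of Ifit2 lay close to it, at 5.73 after IFNβ and 5.94 with vehicle, against 7.29 and 7.78 in 3s cells. Background here and throughout means the highest control (5.76). The median of the 23 control means was 3.45 and the lowest mean among the 37 genes was 4.04, so all 37 lay above the median control. Probe sets differ in how well they hybridise, so levels were not ranked between genes, and a level near background is a limit on what could be seen and not a measure of absence. Each array is of a whole culture, in which fewer cells of a kind and less RNA per cell cannot be told apart.

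**Figure D1:**
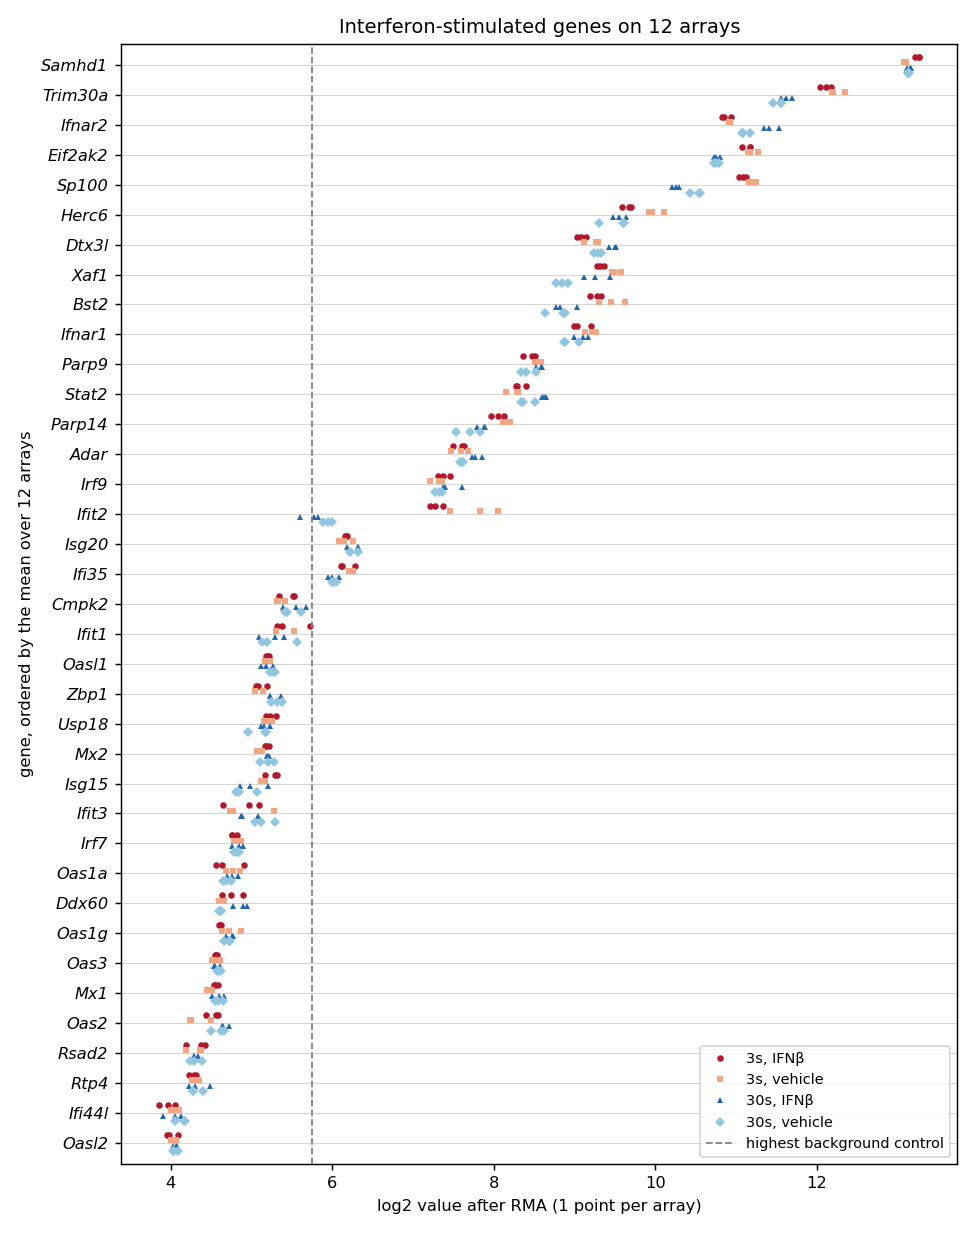
Log2 value after RMA of the 37 genes (rows, ordered by mean) on each of the 12 arrays, with 1 point per array coloured by group and a dashed line at the highest background control probe set (5.76). In 19 genes the means are at or below the line, and the points of the 4 groups lie close together in most rows, with Ifit2 as the widest spread between the lines.

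In 3s cells, whose Runx1 is excised by the same IFNβ, none of the 37 genes passed the test 6 days after treatment. The comparison was IFNβ against vehicle by limma with Benjamini-Hochberg adjustment over all genes, in which 1.02% of all genes passed. At an unadjusted p under 0.05, 2 genes were higher and 7 lower, where 3.84% and 4.21% of all genes were, and the methods' t-test called 5 of the 37 unadjusted, where 7.57% of all genes were called, and 0 after Benjamini-Hochberg, where 8 of all genes were. The median log2 difference of the 37 was -0.02, against -0.002 over all genes, and the 18 genes above background had a median of -0.11 where all genes above background had 0.0077. By sign, 15 of the 37 were above 0 and 22 below, against 14709 and 15389 of all genes. Single differences ran between -0.49 for Ifit2 and 0.20 for Oas2. The 95% interval of the difference (not adjusted for the number of genes) ended below a 1.5-fold rise for all 37 genes, with the highest upper limit, that of Ifit1, at 0.40 on the log2 scale. For the 19 genes at or below background, here and below, such intervals bound the array value only. RMA understates differences there, so a rise in transcript could be larger. The arrays of both treatments did not overlap in 3 genes with IFNβ higher (Mx1, Mx2 and Samhd1) and 7 with IFNβ lower (Ifit2, Oas1g, Xaf1, Trim30a, Parp9, Sp100 and Herc6), against 6.45% and 6.95% of all genes.

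Mx1, the antiviral GTPase whose promoter drives the Cre transgene, read 4.55, 4.59 and 4.54 in IFNβ-treated 3s cultures, against 4.49, 4.52 and 4.45 with vehicle. These did not overlap, but the difference was 0.07 ± 0.048 (SE) with an adjusted p of 0.819 in limma, and both are under background. In 30s cultures Mx1 read 4.67, 4.51 and 4.60 after IFNβ and 4.55, 4.59 and 4.65 with vehicle, which overlapped. Samhd1, which depletes the nucleotides that viruses need for DNA synthesis, had the smallest adjusted p among the 37 in 3s cells. It read 13.21, 13.27 and 13.27 after IFNβ and 13.11, 13.08 and 13.08 with vehicle, a gap of 0.16 ± 0.036 (SE) that did not pass over all genes (adjusted p of 0.0775). It did pass with an intensity trend in limma, and also when dim genes were left out.

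Ifit2, an antiviral protein that binds viral RNA, was the member farthest below its vehicle cultures. It read 7.21, 7.37 and 7.27 in IFNβ-treated 3s cultures, against 7.82, 7.46 and 8.05 in vehicle-treated ones. All IFNβ arrays lay under all vehicle arrays, by -0.49 ± 0.12 (SE, adjusted p of 0.116), and among the single arrays left out it passed only without the 3s vehicle culture of replicate 2. Herc6, the ligase that attaches ISG15 to proteins in the mouse, read 9.59, 9.70 and 9.67 after IFNβ and 9.96, 10.11 and 9.92 with vehicle. Here too the treatments did not overlap, with -0.34 ± 0.084 (SE, adjusted p of 0.122), and of the same settings Herc6 passed only without the 30s vehicle culture of replicate 3. The summed signal of the 7 B lineage markers was 82779 to 87754 on the linear scale in these IFNβ-treated cultures and 87809 to 94346 with vehicle. Its part in the values of the 37 genes was not tested.

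In 30s cells, which cannot lose Runx1, 2 of the 37 genes were higher after IFNβ (Xaf1 and Ifnar2) and 1 was lower (Sp100), where 0.651% and 0.498% of all genes passed. At an unadjusted p under 0.05, 8 genes were higher and 1 lower, against 8.64% and 4.87% of all genes. The median log2 difference of the 37 was 0.04, against 0.0069 over all genes, and the 18 genes above background had a median of 0.12 where all genes above background had 0.035. By sign, 27 were above 0 and 10 below, against 16016 and 14081 of all genes. The 95% interval ended below a 1.5-fold rise for all 37, with the highest upper limit, that of Xaf1, at 0.58 on the log2 scale. Arrays did not overlap in 7 genes with IFNβ higher (Irf9, Stat2, Xaf1, Dtx3l, Adar, Ddx60 and Ifnar2) and 2 with IFNβ lower (Ifit2 and Sp100), against 11.6% and 7.06% of all genes.

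**Figure D2:**
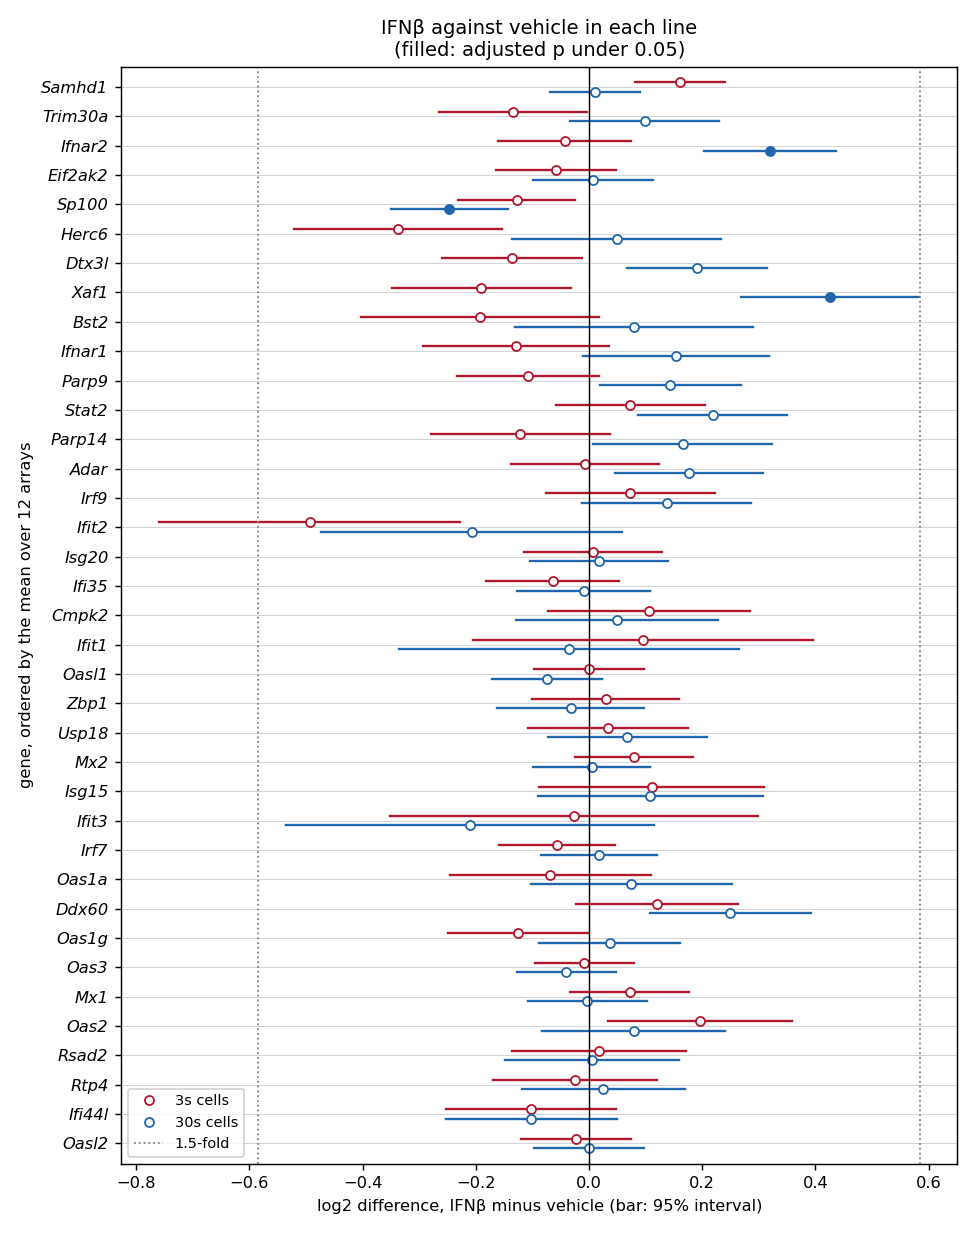
Log2 difference between IFNβ and vehicle for each of the 37 genes in 3s (red, upper) and 30s cells (blue, lower), with 95% intervals of the limma fit and dotted lines at 1.5-fold. Filled points passed the test, which only Xaf1, Ifnar2 and Sp100 did, all in 30s cells, and no interval reaches past 1.5-fold upwards. For the 19 genes at or below background the intervals bound the array value only.

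Xaf1, a pro-apoptotic protein that antagonises the caspase inhibitor XIAP, read 9.43, 9.12 and 9.25 in IFNβ-treated 30s cultures, against 8.84, 8.92 and 8.77 in vehicle-treated ones. Every IFNβ array lay above every vehicle array, and Xaf1 rose by 0.43 ± 0.072 on the log2 scale (SE), a 1.34-fold change with an adjusted p of 0.0190 in limma. In 3s cultures it read 9.31, 9.36 and 9.28 after IFNβ, against 9.49, 9.47 and 9.57 with vehicle, so that the IFNβ arrays lay below, by -0.19 ± 0.072 (SE, adjusted p of 0.462). The IFNβ effects of the lines differed by -0.62 ± 0.10 (3s minus 30s, SE, adjusted p of 0.0158), which made Xaf1 the only 1 of the 37 to pass that test, where 1.02% of all genes did. Resting Xaf1 was also apart between the lines, as given below, and the 30s effect, the effects' difference and the resting comparison all use the vehicle arrays of 30s cells.

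Ifnar2, the receptor chain that binds interferon with high affinity, read 11.53, 11.41 and 11.34 in 30s cultures after IFNβ, against 11.08, 11.08 and 11.17 with vehicle. The treatments did not overlap, and Ifnar2 rose by 0.32 ± 0.053 (SE), with an adjusted p of 0.0182. In 3s cultures it read 10.85, 10.83 and 10.94 after IFNβ and 10.91, 10.92 and 10.91 with vehicle, which overlapped (-0.04 ± 0.053, SE, adjusted p of 0.945). The difference between the effects, -0.36 ± 0.075 (SE), fell just outside the threshold with an adjusted p of 0.0501. Its partner chain Ifnar1 read 9.17, 8.99 and 9.11 in IFNβ-treated 30s cultures and 8.87, 8.88 and 9.06 with vehicle. These overlapped, with a difference of 0.15 ± 0.075 (SE, adjusted p of 0.411).

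Sp100, a protein of the PML nuclear bodies that restrains viral genomes, was the member that fell in 30s cells. It read 10.26, 10.21 and 10.30 after IFNβ, against 10.42, 10.54 and 10.55 with vehicle, and dropped by 0.25 on the log2 scale (SE 0.047, adjusted p of 0.0353). In 3s cultures it read 11.12, 11.04 and 11.08 after IFNβ and 11.16, 11.22 and 11.24 with vehicle, again with no overlap, but by -0.13 ± 0.047 (SE) and with an adjusted p of 0.434. Averaged over both lines, Sp100 fell by 0.19 (SE 0.033, adjusted p of 0.0227), and it was the only 1 of the 37 to pass that test, as 1.05% of all genes did. With each of the 12 arrays left out in turn, Sp100 lost this call 8 times (adjusted p in limma between 0.0176 and 0.0659). Without vehicle replicate 2 of 3s, Ifit2 passed in its place. For that average the highest upper limit of the 95% intervals of all 37 genes was 0.29 on the log2 scale.

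The 3 calls in 30s cells rested on the spread that all 12 arrays share. With only the 30s arrays in the fit, no gene passed at all in limma, of the 37 or of 30098, while the methods' t-test on those arrays called 8 of the 37 unadjusted, where 11.8% of all genes were called, and 0 after Benjamini-Hochberg, where 1 of all genes was. Without IFNβ replicate 1 of the 30s cells none of the 3 passed. Xaf1 also lost its call without IFNβ replicate 3 or without vehicle replicate 1 or 3, with adjusted p between 0.0151 and 0.0758 and differences between 0.34 and 0.50 over the single arrays left out. Ifnar2 lost its call without IFNβ replicate 1 or 2 or vehicle replicate 1 or 2 (adjusted p between 0.0194 and 0.0776). Sp100 lost its call without any of 7 arrays, namely all 3 of the IFNβ-treated 30s cultures, vehicle replicates 2 and 3 of 30s, IFNβ replicate 3 of 3s and vehicle replicate 2 of 3s (adjusted p between 0.0321 and 0.122). The median 30s difference over the 452 genes above background on chromosome 16, where both receptor chains lie, was 0.069, and over the 1089 on chromosome 11, where Xaf1 lies, it was 0.049. The part of these medians in the results was not tested.

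**Figure D3:**
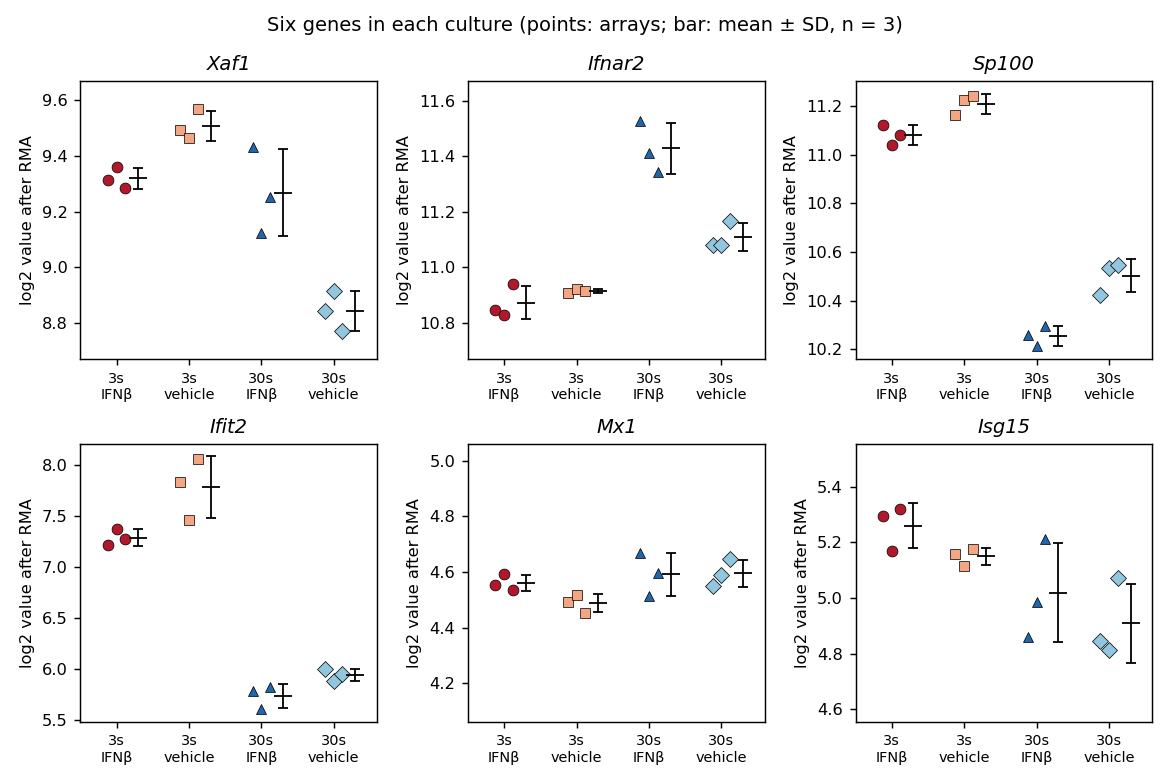
Log2 values after RMA of Xaf1, Ifnar2, Sp100, Ifit2, Mx1 and Isg15 in each culture, by group, with the mean ± SD (n = 3) beside the points. Each panel has its own axis range. Xaf1 and Ifnar2 show 30s IFNβ points above 30s vehicle, Sp100 shows IFNβ below vehicle in both lines, and the largest gap of all is the one between the lines in Ifit2.

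The factors that carry the interferon signal to DNA did not pass a test of IFNβ in either line. Stat2, the ISGF3 subunit with the transactivation domain, read 8.65, 8.62 and 8.60 in IFNβ-treated 30s cultures and 8.36, 8.34 and 8.51 with vehicle. These did not overlap, at 0.22 ± 0.060 (SE, adjusted p of 0.112). In 3s cultures Stat2 read 8.29, 8.40 and 8.27 after IFNβ and 8.30, 8.15 and 8.29 with vehicle, which overlapped (0.07 ± 0.060, SE, adjusted p of 0.880). Irf9, the DNA-binding subunit, read 7.60, 7.37 and 7.39 in 30s cultures after IFNβ and 7.35, 7.32 and 7.28 with vehicle. Replicate 1 was the highest, and the difference was 0.14 ± 0.068 (SE, adjusted p of 0.423). In 3s cultures Irf9 read 7.45, 7.37 and 7.31 after IFNβ and 7.36, 7.22 and 7.33 with vehicle (0.07 ± 0.068, SE, adjusted p of 0.911). Irf7 was near background in all groups, with 4.77, 4.82 and 4.76 in IFNβ-treated 3s cultures, 4.86, 4.87 and 4.78 with vehicle, 4.90, 4.84 and 4.77 in IFNβ-treated 30s cultures and 4.85, 4.82 and 4.78 with vehicle. Its differences were -0.06 ± 0.047 in 3s cells (SE, adjusted p of 0.887) and 0.02 ± 0.047 in 30s cells (SE, adjusted p of 0.931).

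The remaining members showed small differences after IFNβ by role. The 6 genes of the 2-5 oligoadenylate synthetase family, whose product activates the RNA-cutting RNase L, lay between -0.13 and 0.20 in 3s cells and between -0.07 and 0.08 in 30s cells. Isg15 read 5.29, 5.17 and 5.32 in IFNβ-treated 3s cultures and 5.16, 5.12 and 5.17 with vehicle, which overlapped, with a difference of 0.11 ± 0.090 (SE, adjusted p of 0.879). In 30s cultures it read 4.86, 4.98 and 5.21 after IFNβ and 4.84, 4.81 and 5.07 with vehicle. Its promoter is the one above with 3 overlapping ISRE cores, and its values were near background in both lines and under both treatments. Usp18, which cleaves ISG15 from proteins and blocks IFNAR2, had differences of 0.03 in 3s and 0.07 in 30s cells. Parp9, Dtx3l and Parp14 form a neighbouring group on chromosome 16, and Parp9 and Dtx3l act as a complex. Their differences were -0.14 to -0.11 in 3s cells and 0.14 to 0.19 in 30s cells, and none passed in either line or in the difference between the lines. Ddx60, a helicase that helps RIG-I sense RNA, had the largest 30s difference outside the genes that passed, 0.25 ± 0.065 (SE, adjusted p of 0.0961), at a level under background.

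With vehicle, 10 of the 37 genes were higher in 3s than in 30s cells and 3 were lower, where 14.3% and 10.6% of all genes passed in these directions. This comparison and that of IFNβ in 3s cells share the 3s vehicle arrays, so their results, as for Ifit2 and Herc6, are not independent. All 10 that were higher had a mean above background, and among the 18 members above background 11 passed in either direction, where 46.3% of all genes above background did. Arrays did not overlap in 11 genes with 3s higher and 7 with 3s lower, against 19.2% and 18.9% of all genes. The median difference was 0.01 over the 37 genes and -0.01 over all genes. The 18 genes above background had a median of 0.24, where all genes above background had 0.029. The 5 markers of plasmacytoid dendritic cells summed to 207 to 221 on the linear scale in 3s vehicle cultures and 268 to 280 in 30s vehicle cultures. Of these 5, Cox6a2 had the widest log2 difference at rest (-0.86, 3s minus 30s), and the others lay between -0.25 and -0.08. The 7 B lineage markers summed to 87809 to 94346 in 3s and 68339 to 72272 in 30s vehicle cultures. The part of both marker sets in the differences of the 37 genes was not tested.

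Ifit2 had the widest gap at rest, with 7.82, 7.46 and 8.05 in 3s vehicle cultures, against 6.00, 5.88 and 5.95 in 30s vehicle cultures. That is a difference of 1.84 ± 0.12 (SE), or 3.57-fold, with an adjusted p of 5.96e-07 in limma. The 30s values lay just above the highest background control (5.76), where RMA understates differences. Ifit1 and Ifit3, its neighbours on chromosome 19 and members of the same family, were at or below background and differed by 0.08 and -0.23 without passing. Trim30a, a TRIM protein that dampens NF-κB signalling in the mouse, read 12.35, 12.20 and 12.19 in 3s and 11.55, 11.56 and 11.45 in 30s vehicle cultures. It was 0.73 ± 0.060 higher (SE, 1.65-fold, adjusted p of 3.52e-06) with no overlap. Sp100, with the values above, was 0.71 ± 0.047 higher in 3s cells (SE, adjusted p of 6.49e-07). Xaf1 was 0.67 ± 0.072 higher in 3s cells at rest (SE, adjusted p of 2.99e-05).

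Bst2, or tetherin, which holds budding virus at the cell surface, read 9.46, 9.31 and 9.62 in 3s and 8.64, 8.86 and 8.88 in 30s vehicle cultures. The lines did not overlap, at 0.67 ± 0.096 (SE, adjusted p of 2.68e-04). Herc6 read 9.96, 10.11 and 9.92 in 3s and 9.59, 9.61 and 9.31 in 30s vehicle cultures, again with no overlap (0.49 ± 0.084, SE, adjusted p of 9.83e-04). Parp14 (0.48), Eif2ak2 (0.44), Ifnar1 (0.27) and Ifi35 (0.21) completed the genes that were higher in 3s cells. Ifnar1 read 9.13, 9.22 and 9.27 in 3s and 8.87, 8.88 and 9.06 in 30s vehicle cultures (adjusted p of 0.0196), without overlap. After IFNβ in 3s cells it read 9.21, 8.998 and 9.03, which overlapped with vehicle (-0.13 ± 0.075, SE, adjusted p of 0.769).

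Of the 37, 3 were lower in 3s than in 30s cells at rest. Ifnar2, the other receptor chain, differed by -0.19 ± 0.053 (SE, adjusted p of 0.0191), with the 3s vehicle values of 10.91 to 10.92 all under the 30s vehicle values of 11.08 to 11.17. Oas2 read 4.50, 4.26 and 4.25 in 3s and 4.62, 4.50 and 4.67 in 30s vehicle cultures (-0.26 ± 0.074, SE, adjusted p of 0.0227). Zbp1, a sensor of Z-form nucleic acid, read 5.04, 5.14 and 5.05 in 3s and 5.24, 5.31 and 5.38 in 30s vehicle cultures (-0.23 ± 0.059, SE, adjusted p of 0.0127). Both Oas2 and Zbp1 were at or below background, and the lines overlapped in Oas2, where the highest 3s value just exceeded the lowest 30s value, but not in Zbp1. Ifnar1 lost its call without 3s vehicle replicate 2 or 3 or 30s vehicle replicate 1 or 2 (adjusted p up to 0.0759), and Oas2 without 3s vehicle replicate 2 or 3 or 30s vehicle replicate 1 or 3 (up to 0.0929). Ifnar2 lost it without 3s vehicle replicate 1 or 3 or 30s vehicle replicate 3 (up to 0.0767), and Zbp1 without 30s vehicle replicate 3 (0.0543). The other 9 kept theirs without any single array.

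**Figure D4:**
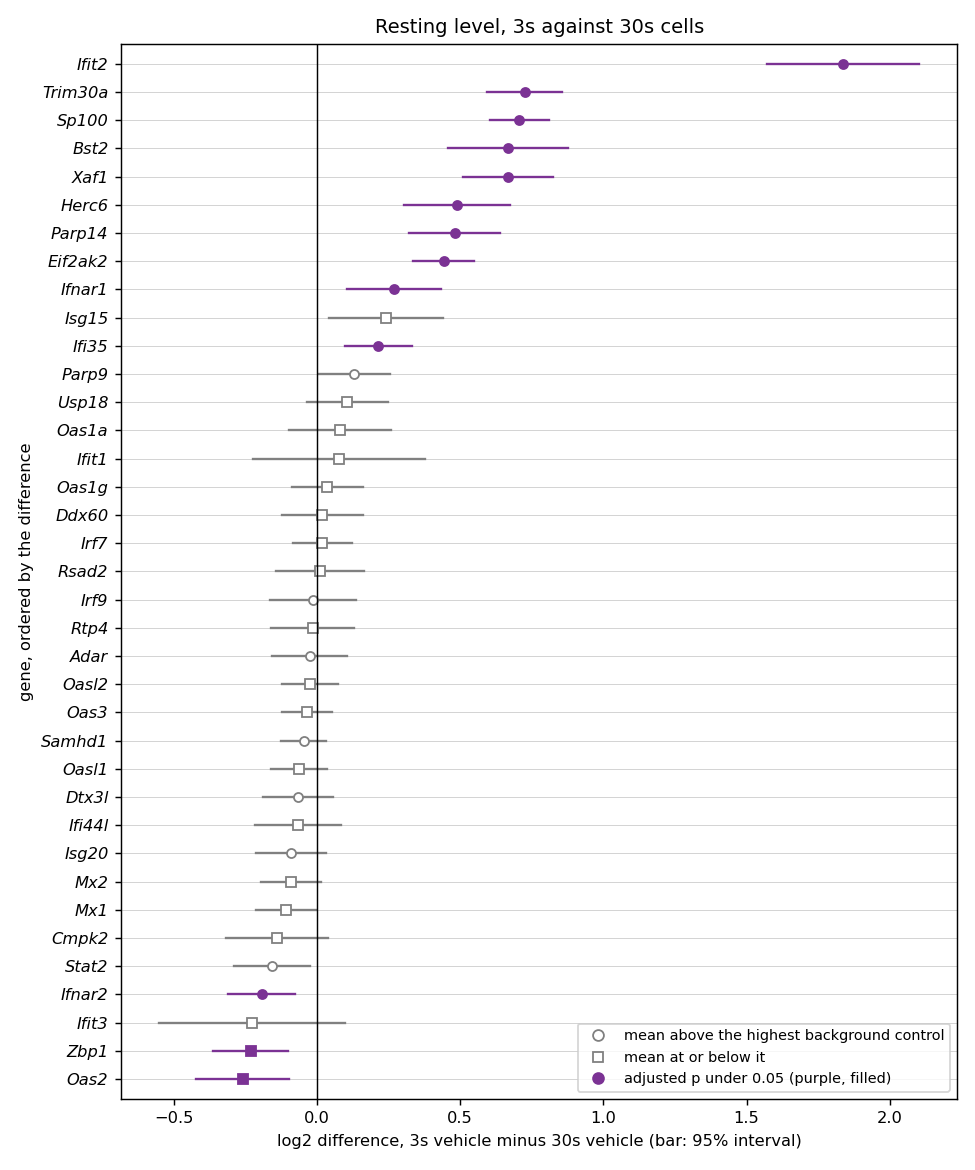
Log2 difference of the vehicle groups, 3s minus 30s, for each of the 37 genes with 95% intervals of the limma fit. Purple filled points passed the test, circles are genes above the highest background control and squares those at or below it. Ifit2 stands at 1.84, and the other 12 genes that passed lie between -0.26 and 0.73.

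The wider pathway was followed in 3 lists of genes. Of 14 measured genes of the receptor and its signalling, none passed in 3s cells, where 1.02% of all genes did. At an unadjusted p under 0.05 the count was 0 as well, where 3.84% of all genes were higher and 4.21% lower. In 30s cells Ifnar2 rose and Ptpn6 fell, where 0.651% and 0.498% of all genes passed in these directions. Ptpn6 encodes SHP-1, a phosphatase that dampens JAK kinases, and read 10.15, 10.25 and 10.39 in IFNβ-treated 30s cultures, against 10.65, 10.67 and 10.59 with vehicle. It dropped by 0.37 (SE 0.057, adjusted p of 0.0120) with no overlap. The kinases Jak1 and Tyk2 did not pass in either line after IFNβ, with differences of -0.0005 and -0.12 in 3s and -0.0051 and 0.10 in 30s cells. Of 19 measured genes of the interferon ligands and their induction (Traf3 had none), none passed after IFNβ in either line by limma. At an unadjusted p under 0.05, 0 were higher and 2 lower in 3s cells, where 3.84% and 4.21% of all genes were. By the same threshold 2 were higher and 0 lower in 30s cells, where 8.64% and 4.87% of all genes were.

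Of a list of further interferon-stimulated genes, 49 were measured. The list was chosen with earlier results of these data known, so its counts are not an independent test against all genes. Among the 49, 5 were higher and 1 lower in 3s cells, where 0.581% and 0.439% of all genes passed. In 30s cells 2 were higher and 0 lower, where the shares were 0.651% and 0.498%. The largest was Cgas, the cytosolic DNA sensor, which read 10.03, 9.92 and 9.90 in IFNβ-treated 3s cultures, against 8.74, 8.73 and 8.79 with vehicle. It rose by 1.20 ± 0.093 (SE), or 2.30-fold, with an adjusted p of 8.10e-05, while in 30s cells it differed by 0.02 ± 0.093 (SE, adjusted p of 0.970). Lgals9, a galectin, rose by 0.68 in 3s cells (adjusted p of 6.38e-05), as did Epsti1 (0.26) and Irf1 (0.20). Tdrd7 rose by 0.31, with all 4 group means under background, and the GTPase Gbp3 fell by 0.46 (adjusted p of 0.00149). In 30s cells Ifih1, the RNA sensor MDA5, rose by 0.42 (adjusted p of 0.0381) and the peptide transporter Tap1 by 0.19 (adjusted p of 0.0359). The median over the 49 genes was -0.02 in 3s and 0.02 in 30s cells. Cgas, Lgals9, Tdrd7 and Gbp3 kept their 3s calls without any single array, while Epsti1, Irf1, Ifih1 and Tap1 lost theirs without 10, 11, 8 and 10 of the 12 arrays, and Ptpn6 only without 30s vehicle replicate 2.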

How the data were processed

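RNA of 12 cultures was hybridised to Affymetrix GeneChip MTA 1.0 arrays, 1 per culture. The authors deposited log2 values from RMA, in which probes are corrected for background, quantile normalised and summarised per probe set. Affymetrix Expression Console 1.4 is credited in the submitters' processing notes, and Partek Genomics Suite in the study's methods. RMA pulls low signals together, so differences near background are understated. The values were used as deposited. Of 72688 probe sets, 6732 are controls, 30638 have 1 gene symbol, 2176 several and 33142 none. Only those with 1 symbol were used (330 symbols updated through RefSeq), with the highest mean over 12 arrays where a gene had several. No depth applies to arrays, and 3 per group limit the precision.

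Group means were fitted to all 12 arrays with limma 3.58.1 in R 4.3.3 (8 residual degrees of freedom, prior 3.148) and tested two-sided, with Benjamini-Hochberg adjustment over 30098 genes at 0.05. The fit was tested on simulated data. P-values measure the spread between cultures of 1 line. The members and lists were chosen with earlier results of these data known. Given in full were genes past a test of IFNβ, up to 6 past the resting test in each direction, and Mx1, Ifnar1, Ifnar2, Stat2, Irf9 and Irf7. Samhd1, Isg15 and Ddx60 were chosen after their values were seen. Alternatives were other sets of arrays in the fit, replicate blocks, moderation, scaling, filters, probe set rules, the t-test named in the methods, and leaving out each array. No batch is named in the labels. A signalling gene of the lists is not reported here. Sequences are from RefSeq.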

Additional observations from a re-analysis of the deposited data

Results flagged for a closer look

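Among the 37 genes and the 3 lists of the wider pathway, the IFNβ effect differed between the lines in 6 genes by limma's interaction test (3s effect minus 30s effect, Benjamini-Hochberg adjusted over all genes), which 307 of all 30098 genes (1.02%) passed. Among the 37 interferon-stimulated genes this was Xaf1, with -0.62 (adjusted p of 0.0158). From the further lists, the difference was 1.18 for Cgas (adjusted p of 0.0022), 0.66 for Lgals9 (adjusted p of 0.0015), 0.42 for Ptpn6 (adjusted p of 0.0329), -0.28 for Tap1 (adjusted p of 0.0313) and -0.50 for Gbp3 (adjusted p of 0.0109). Xaf1, Cgas, Lgals9 and Gbp3 kept this call without each of the 12 arrays in turn, Ptpn6 lost it without 11 of them and Tap1 without any. With 3 cultures a group, single cultures were not tested as outliers.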

How the results depend on the processing

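Over 1119 values of single genes under other settings, 901 kept their direction and their side of the threshold, 211 kept the direction but no longer passed and 2 newly passed. Another 5, none past the test, changed sign by less than their SE. Counts of the 37 genes past the test are given here where they differed, each with the share of all genes tested under that setting. In 3s cells (0), 1 gene passed with an intensity trend (0.96%), 1 with dim genes left out (2.54%), 5 by the methods' t-test unadjusted (7.57%), 2 by the study's thresholds, an unadjusted p under 0.05 with a least fold change (1.53%), and 0 to 1 without single arrays. In 30s cells (3), 0 passed with only the arrays compared (0 of all genes), 0 by the t-test after Benjamini-Hochberg (0.00332%), 8 by it unadjusted (11.8%), 1 by the study's thresholds (1.95%), 2 with all probe sets (0.508%), and 0 to 3 without single arrays. For the mean of both lines (1), 7 passed by the t-test unadjusted (11.3%), 2 adjusted (0.797%), 0 with all probe sets (0.505%), and 0 to 1 without single arrays. By the study's thresholds it was again 1 (0.628%), but Ifit2 and not Sp100. For the difference between the lines' effects (1), 2 passed with an intensity trend (0.93%), with median centring (0.993%) or with dim genes left out (2.66%), 9 by the t-test unadjusted (10.9%), 0 adjusted (0.591%), 4 by the study's thresholds (4.1%), and 1 to 2 without single arrays. At rest (13), 8 passed by the study's thresholds (15.2%), 9 by the t-test adjusted (16.4%), 15 unadjusted (30%), 11 with dim genes left out (48%), 12 with only the arrays compared (22.4%) or median centring (25.3%), 14 with quantile normalisation (24.6%), and 10 to 14 without single arrays. Without single arrays, 0.631% to 0.993% of all genes passed in 3s cells and 0.322% to 1.18% in 30s cells. The shares were 0.648% to 0.947% for the mean, 0.611% to 0.801% for the difference and 21.2% to 24.7% at rest. The causes were not tested.

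Replicate numbers did not pair the cultures, since deviations of equally numbered cultures correlated at -0.097 to 0.126. With the number as a replicate block shared by all groups, 0 genes passed in 3s cells (0.767% of all genes), 2 in 30s cells (0.804%), 1 for the mean (0.887%), 1 for the difference (0.804%) and 14 at rest (24.1%). With a block within each line, 0 passed in 3s cells (0.571% of all genes), in 30s cells (0.316%), for the mean (0.488%) and for the difference (0.439%).

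Of the 37 genes, 19 were near background, where RMA understates differences and a fall has little room to show. The 3 arrays per group, the single line per genotype and the single time of 6 days limit every comparison, and nothing was measured during the exposure to IFNβ.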
